A study of Arabidopsis thaliana with 7 samples.

Results

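The genes described here are the 5 ethylene receptor genes of Arabidopsis thaliana and 5 genes that carry the signal onward, 10 of the 33602 genes in the deposited RNA table. They were listed by identifier from the known pathway, with no threshold on a measured value: ETR1 (AT1G66340), ERS1 (AT2G40940), ETR2 (AT3G23150), ERS2 (AT1G04310), EIN4 (AT3G04580), CTR1 (AT5G03730), EIN2 (AT5G03280), EIN3 (AT3G20770), EIL1 (AT2G27050) and EBF1 (AT2G25490). The choice was made with earlier results of these data known. Of the 10, 2 lie on chromosome 1, 3 on chromosome 2, 3 on chromosome 3 and 2 on chromosome 5. RNA was sequenced from 3 replicate samples of wild-type Col-0 seedlings, the reference accession, grown on MS plates for 14 days at 22 °C in long days (16 h light, 8 h dark). No ethylene treatment, inhibitor or mutant is among the samples, so the data give levels and their spread in 1 condition and no response to the hormone. Whether the replicates are separately grown plants is not stated in the labels, so p-values measure the spread between these samples alone, which may be technical. The series also has 4 chromatin libraries, not analysed here.

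Ethylene is a gas that plants make themselves and use to control seedling growth, ripening, leaf ageing and responses to stress. Its receptors sit in the membrane of the endoplasmic reticulum and bind ethylene through a copper ion. They act in reverse of most receptors: without ethylene they keep the kinase CTR1 active, CTR1 phosphorylates EIN2, and the pathway is off. When ethylene binds, EIN2 is cleaved, its end fragment enters the nucleus, and the transcription factors EIN3 and EIL1 accumulate. EBF1 and EBF2 are F-box proteins that mark EIN3 and EIL1 for breakdown. Much of this control acts on proteins, which transcript counts do not measure.

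The libraries held 30946664, 18493022 and 20764970 counts in replicates 1, 2 and 3. Levels are given as CPM, counts relative to a fixed library total after scaling between libraries, as mean ± SD over the 3 libraries. CPM rises with transcript length, and lengths of transcripts were not used here. Every order between genes below is therefore an order of reads and not of transcript molecules. As a check of the labelled tissue, the leaf genes RBCS1A and CAB1 stood at 10326 ± 475 and 7065 ± 406 CPM (SD, n = 3) and the root gene PYK10 at 2385 ± 9.71 CPM. The floral gene AP3 had 2, 0 and 0 counts and the embryo gene LEC1 had none. In whole seedlings a low level in all cells and a high level in few cells cannot be told apart.

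All 10 genes were expressed, with means from 13.3 CPM for ETR2 to 187 CPM for EIN3 and a median of 86.2 CPM. Among all genes measured, 56.3% reached the same minimum, a mean of at least 1 CPM, and the median of those 18915 expressed genes was 19.1 CPM. The 5 receptors lay at the lower end, with a median of 29.5 CPM, and the 5 genes downstream of them had a median of 136 CPM. ERS1 was the exception among the receptors, with a read level about that of CTR1. Of the 10 genes, 6 had means of 10 to under 100 CPM and 4 had means of 100 CPM and over. All 10 stayed in their class in every library, against 91.6% of expressed genes.

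**Figure D1:**
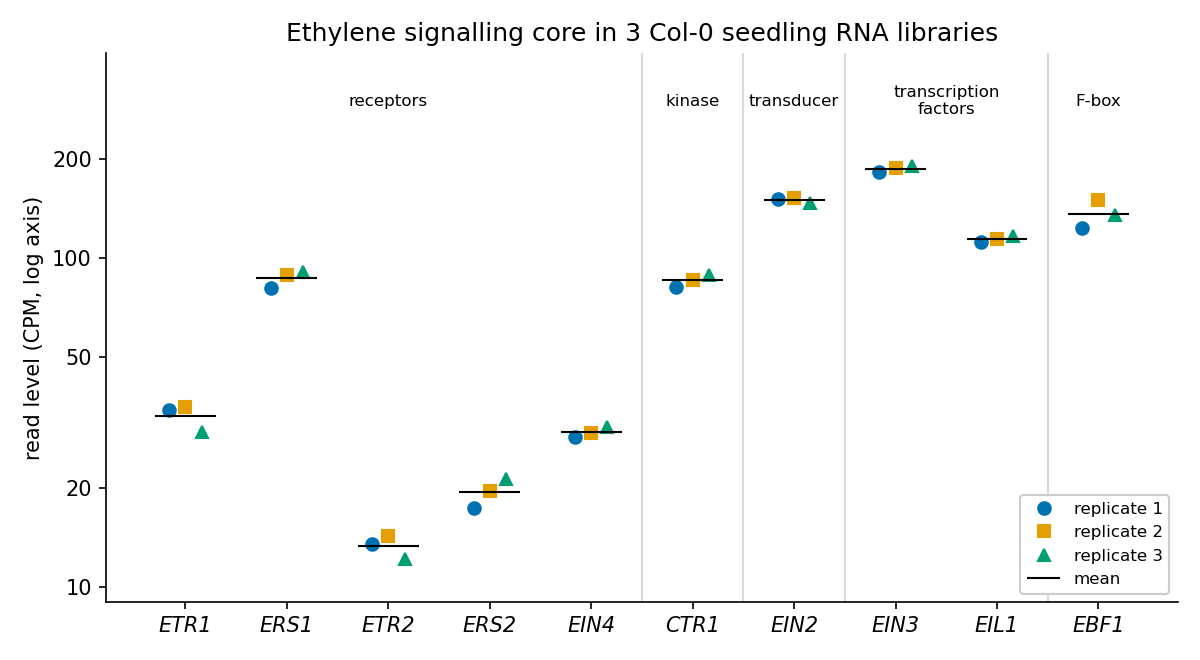
Read level in CPM (log axis) of the 10 ethylene signalling genes in each of the 3 RNA libraries, with the mean as a bar. The 5 receptor genes span 13.3 to 86.8 CPM in the mean, and the 5 genes downstream of them span 85.5 to 187 CPM.

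The receptors fall into subfamilies. ETR1 and ERS1 form subfamily I and carry a working histidine kinase. ETR2, ERS2 and EIN4 form subfamily II, whose kinase domain has lost residues of that type. ETR1, ETR2 and EIN4 end in a receiver domain, which ERS1 and ERS2 lack.

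In subfamily I, ERS1 had the most reads of any receptor. It stood at 81.2, 88.6 and 90.6 CPM in replicates 1, 2 and 3 (2513, 1658 and 1861 counts), a mean of 86.8 ± 4.96 CPM. ETR1, the receptor first defined by dominant ethylene-insensitive mutants, stood at 34.6, 35.2 and 29.6 CPM (1070, 659 and 608 counts), a mean of 33.1 ± 3.07 CPM. The values of the pair did not overlap. Transcript lengths were not used, so the difference is in reads only. The ratio of ERS1 to ETR1 counts was 2.35, 2.52 and 3.06 in replicates 1, 2 and 3. It was highest in replicate 3, the library in which ETR1 was lowest and ERS1 highest.

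In subfamily II, EIN4 stood at 28.6, 29.5 and 30.6 CPM, a mean of 29.5 ± 0.995 CPM. Its coefficient of variation of 3.37% was the smallest among the receptors. ERS2 stood at 17.4, 19.5 and 21.3 CPM, a mean of 19.4 ± 1.96 CPM. ETR2 stood at 13.5, 14.3 and 12.2 CPM, a mean of 13.3 ± 1.06 CPM, the lowest of the 10 genes. It rests on 418, 267 and 250 counts, where counting error alone is 4.89%, 6.12% and 6.32% of the value. The 3 subfamily II genes did not overlap one another. ETR2 was lowest in replicate 3, as ETR1 was, and the ratio of ERS2 to ETR2 counts was 1.29, 1.37 and 1.75 in replicates 1, 2 and 3.

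Shares within a library do not depend on how libraries are scaled. The balance between the subfamilies moved little between libraries, while the share of ETR1 moved more. Subfamily II took 34.0%, 33.8% and 34.8% of all receptor counts in replicates 1, 2 and 3 (mean 34.2 ± 0.521%), with 95% Wilson intervals of 32.7 to 35.2%, 32.3 to 35.4% and 33.3 to 36.3%, which all overlap. ERS1 alone took 46.3%, 47.4% and 49.2% (mean 47.6 ± 1.44%). ETR1 took 19.7% (18.7 to 20.8%), 18.8% (17.6 to 20.2%) and 16.1% (14.9 to 17.3%), with its lowest share in replicate 3. EIN4 took 16.2 ± 0.433%, ERS2 10.7 ± 0.840% and ETR2 7.31 ± 0.614% in the mean. The 5 receptors together summed to 175, 187 and 184 CPM, with a coefficient of variation of 3.37%. These intervals cover counting error only and are too narrow if a fragment was counted more than once.

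**Figure D2:**
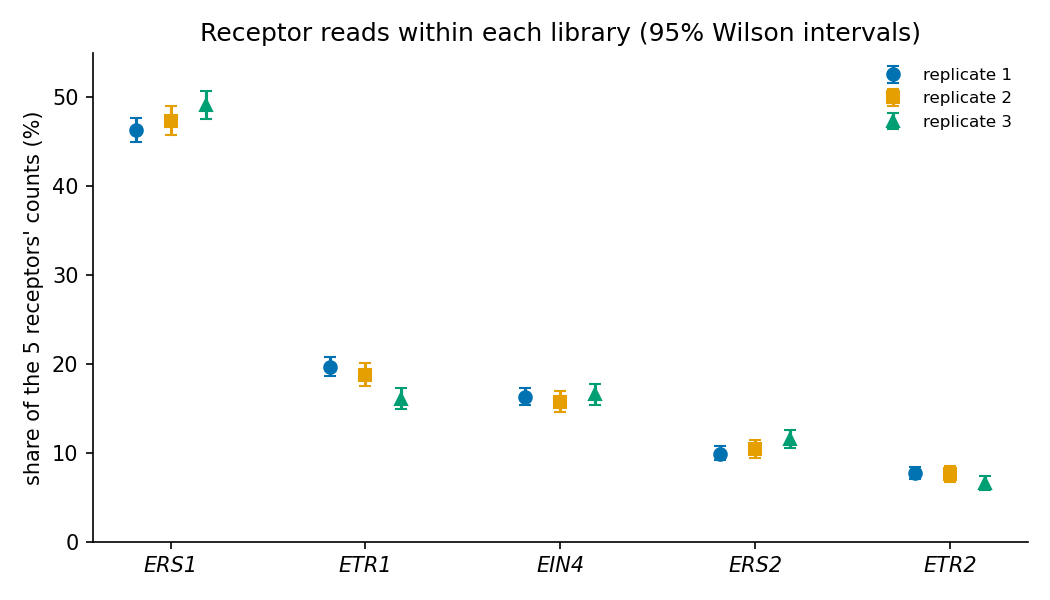
Share of each receptor (%) in the summed counts of the 5 receptors, per library, with 95% Wilson intervals that cover counting error only. ERS1 holds 46.3 to 49.2% in every library, and the share of ETR1 in replicate 3 (16.1%) lies below those in replicates 1 and 2.

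By the RefSeq gene table of assembly TAIR10.1, another gene of the deposited RNA table overlaps ETR1 and ERS1, and none overlaps the other 8. Genes absent from the deposited RNA table were not considered. The sources used here do not give the strand setting of the counting, so reads in the overlaps may be assigned to either gene or lost. The gene that overlaps ETR1, AT1G66345, stood at 4.59 ± 0.265 CPM. The gene that overlaps ERS1, AT2G40935, stood at 7.65 ± 0.320 CPM. Both were far below the receptor they overlap, and their part in the receptor values was not tested.

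CTR1, the Raf-like kinase that the receptors hold active, stood at 81.8, 86.0 and 88.8 CPM, a mean of 85.5 ± 3.56 CPM. Its values overlapped those of ERS1, and the ratio of ERS1 to CTR1 counts was 0.993, 1.03 and 1.02. EIN2, the membrane protein that passes the signal to the nucleus, stood at 151, 152 and 147 CPM, a mean of 150.05 ± 2.56 CPM. At 1.71% its coefficient of variation was the smallest of the 10 genes. EIN2 had 1.85, 1.77 and 1.66 times the counts of CTR1 in replicates 1, 2 and 3.

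The transcription factor genes EIN3 and EIL1 had the steadiest ratio of the pairs compared here. EIN3 stood at 183, 188 and 190.06 CPM, a mean of 187 ± 3.85 CPM and the highest of the 10 genes. EIL1, its closest relative, stood at 112, 114 and 117 CPM, a mean of 114 ± 2.56 CPM. EIN3 was above EIL1 in all 3 libraries with no overlap. The ratio of their counts was 1.64, 1.65 and 1.63, a coefficient of variation of 0.651%. Counting error of EIN3 alone was 1.33% to 1.69% of its value, so the counts do not resolve a spread that small. EIN3 took 62.0% (Wilson interval 61.0 to 63.0%), 62.2% (61.0 to 63.5%) and 61.9% (60.7 to 63.1%) of the counts of the pair. The sources used here do not give the handling of reads that match close relatives, so the split within the pair carries that uncertainty.

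EBF1 varied most against its level. It stood at 124, 150 and 135 CPM in replicates 1, 2 and 3 (3824, 2798 and 2767 counts), a mean of 136 ± 13.02 CPM. Replicate 1 was lowest and replicate 2 highest. EBF2 (AT5G25350), the other F-box gene for EIN3 and EIL1, stood at 124, 126 and 121 CPM, a mean of 124 ± 2.51 CPM, and did not share this spread. The ratio of EBF1 to EBF2 counts was 0.999, 1.19 and 1.11, so the genes had nearly equal counts in replicate 1 and EBF1 led in the other libraries. EBF1 took 50.0% of the counts of the pair in replicate 1 (Wilson interval 48.9 to 51.1%), 54.2% (52.9 to 55.6%) in replicate 2 and 52.7% (51.3 to 54.0%) in replicate 3. The intervals again cover counting error only, so they do not by themselves set the libraries apart.

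**Figure D3:**
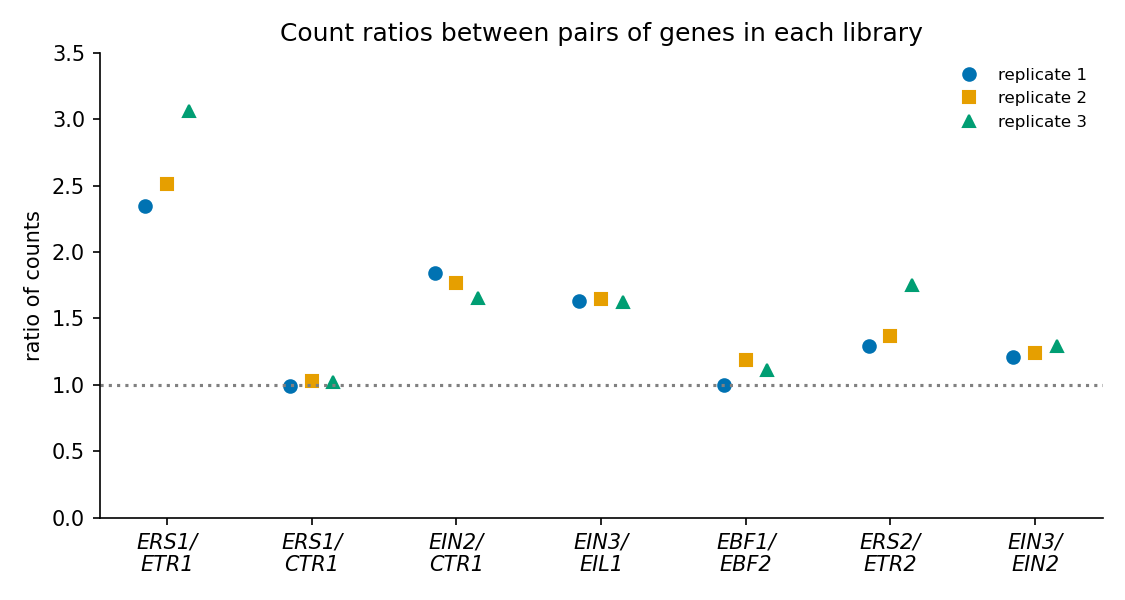
Ratio of counts between pairs of ethylene genes in each of the 3 libraries, with a dotted line at equal counts. EIN3 to EIL1 lies at 1.63 to 1.65 in every library, while ERS1 to ETR1 runs from 2.35 to 3.06 and EBF1 to EBF2 from 0.999 to 1.19.

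Ordered by reads, the genes ran EIN3, EIN2, EBF1, EIL1, ERS1, CTR1, ETR1, EIN4, ERS2 and ETR2. Of the 9 neighbouring pairs in that order, 6 did not overlap over the 3 libraries. The values of EIN2 and EBF1 overlapped, with means 14.1 CPM apart and an SD of 13.02 CPM for EBF1, though EIN2 was higher in 3 of 3 libraries. ERS1 and CTR1 differed by 1.29 CPM and ETR1 and EIN4 by 3.59 CPM, and in each of these pairs the first was higher in 2 of 3 libraries. With 3 libraries an exact sign-flip test of a pair cannot give a two-sided p under 0.25, so no p is given for the order.

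Spread between the libraries was tested against genes of the same level. In edgeR's goodness-of-fit test with the trended dispersion, 0 of 10 had an adjusted p below 0.05. Since the test called 0.148% of expressed genes, a count of 0 among 10 genes says nothing particular about them. At an unadjusted p under 0.05 the counts were 1 of 10 and 872 of 18915. The 1 gene was EBF1 (unadjusted p = 0.0414, adjusted p = 1.00 by that edgeR test). Among the 1000 expressed genes nearest in level, EBF1 had a larger deviance than 96.7%, ETR1 than 85.3%, ERS2 than 74.3% and ERS1 than 71.8%. EIN2, EIN4, EIN3 and EIL1 lay between 16.9% and 21.3%, among the steadier genes of their level.

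Against counting error alone, with the dispersion set to 0, the same edgeR test called 4 of 10 genes and 32.8% of expressed genes. These shares are not matched for level. The power of this test rises with counts, and the medians were 86.2 CPM for the 10 and 19.1 CPM for expressed genes. The 4 were EBF1 (adjusted p = 1.81e-11), ERS1 (adjusted p = 0.00407), ETR1 (adjusted p = 0.0110) and ERS2 (adjusted p = 0.0254). Low counts in the table were mostly even, 84.5% to 86.2% of counts from 1 to 19, so a fragment may count as a pair of reads. With counts halved the test called 1 of 10 genes, EBF1 (adjusted p = 3.82e-05), and 6.40% of expressed genes. Leaving out replicate 1 ended the call for ERS1 and ERS2, and leaving out replicate 3 ended it for ETR1 and ERS2 (2 of 10 genes called each time). Leaving out replicate 2 added CTR1 (5 of 10).

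**Figure D4:**
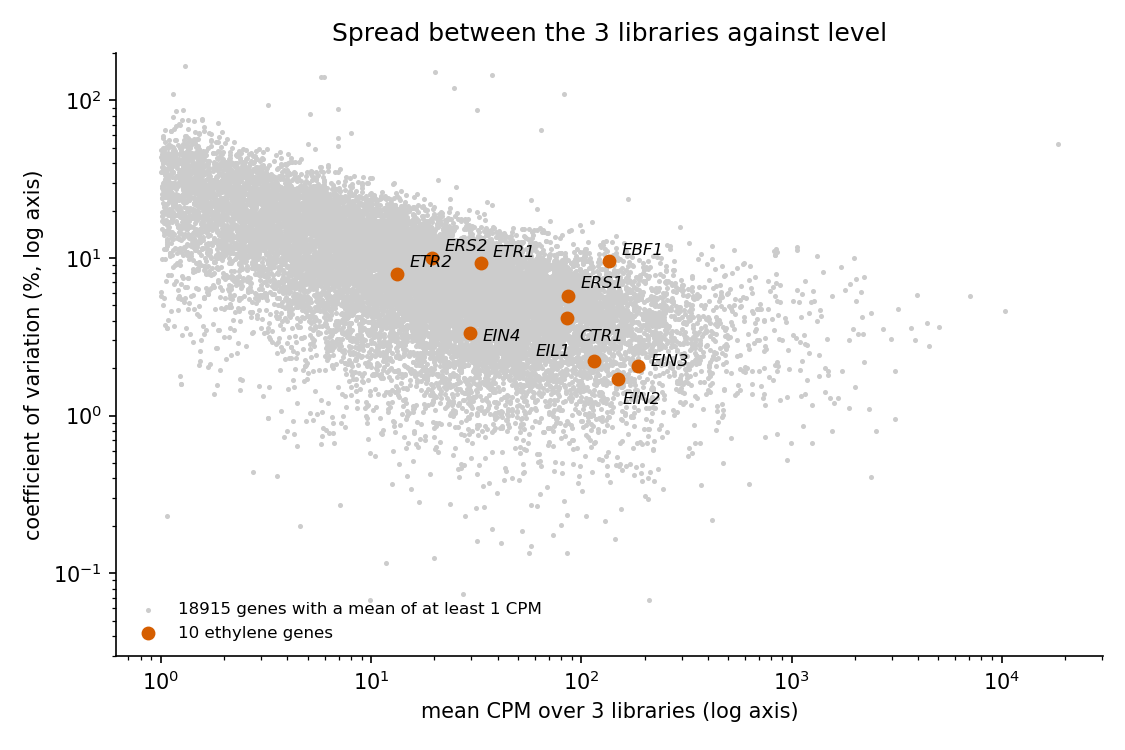
Coefficient of variation over the 3 libraries (%, log axis) against mean CPM (log axis) for 18915 expressed genes, with the 10 ethylene genes marked. EBF1 lies at the upper side of genes of its level at 9.57%, and EIN2, EIN3 and EIL1 lie at 1.71 to 2.24%.

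The genes fell into patterns over the libraries that were seen only after the values were known. ERS1, ERS2, EIN4, CTR1, EIN3 and EIL1 were all lowest in replicate 1 and highest in replicate 3, 6 of 10 against 15.8% of expressed genes. ETR1, ETR2 and EIN2 were lowest in replicate 3 and highest in replicate 2, 3 of 10 against 17.6%. Most of these differences were small, and the first pattern depends on the scaling between libraries. Relative to library totals alone, ERS1, EIN3 and EIL1 were highest in replicate 2, while ERS2, EIN4 and CTR1 kept the pattern. The log2 CPM of replicate 1 minus the mean of the other libraries was -0.05 for EIN3 and EIL1, -0.07 for EIN4 and -0.10 for CTR1, and reached -0.23 for ERS2. Replicate 1 was the deepest library, and the part of depth in this pattern was not tested.

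Of 44 further genes of the pathway, 37 were expressed, and the median over all 44 was 19.3 CPM. None of them had an adjusted p below 0.05 in the edgeR test at the trended dispersion. An unadjusted p under 0.05 was found for 2, ACS2 and EDF1. Beside EBF2, the relatives of the core genes differed widely. EIL3 (AT1G73730), a relative of EIN3 known for the response to sulfur shortage, stood at 26.2 ± 1.996 CPM. EIL2 (AT5G21120) had 10, 2 and 6 counts, a mean of 0.241 CPM, and was not counted as expressed.

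Ethylene is made from S-adenosylmethionine by ACC synthases, usually the limiting step, and then by ACC oxidases. Of 9 ACC synthase genes 4 were expressed, and ACS6 (AT4G11280), known as a target of stress-activated MAP kinases, held nearly all their reads. It stood at 88.2, 84.6 and 85.2 CPM, and took 95.1%, 92.5% and 94.3% of the counts of the 9 genes. ACS11 followed at 1.47 ± 0.254 CPM, and ACS7 was the lowest expressed at 1.32 ± 0.520 CPM, on 42, 34 and 16 counts. Between them ACS2 (AT1G01480) stood at 1.34 ± 0.672 CPM, on 18, 35 and 32 counts, a coefficient of variation of 50.3%. In the edgeR test at the trended dispersion ACS2 had an unadjusted p of 0.00771 (adjusted p = 0.718). ACS1 had no count in any library, and a floor of 3 counts is 0.162 CPM in replicate 2, the shallowest library. That floor covers counting error only and is too low if a fragment was counted more than once. Each of the 3 ACC oxidase genes described here was expressed. ACO4 (AT1G05010) stood at 334, 324 and 344 CPM, a mean of 334 ± 10.2 CPM, and had more reads than any of the 10 core genes. ACO5 (AT1G77330) stood at 20.3 ± 1.11 CPM, and ACO1 was lowest at 9.65 ± 0.610 CPM.

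Genes that tune these steps were expressed throughout. ETO1 and its relatives send ACC synthases to breakdown, and of the 3 EOL1 stood at 73.6 ± 2.76 CPM, ETO1 at 39.2 ± 3.59 CPM and EOL2 at 20.1 ± 1.34 CPM. Of 5 genes whose products act at the receptors, RAN1 (AT5G44790), the pump that supplies their copper, led at 102 ± 2.81 CPM. ARL followed at 18.5 ± 0.835 CPM, and ARGOS, which lowers ethylene sensitivity, was lowest at 3.05 ± 0.750 CPM. The F-box genes ETP1 and ETP2, whose products target EIN2 for breakdown, stood at 29.1 ± 1.82 and 6.76 ± 1.04 CPM. EIN5 (XRN4 in the gene table, AT1G54490), an exoribonuclease needed for normal EBF1 and EBF2 transcript levels, stood at 73.8 ± 5.25 CPM.

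Of 14 ethylene response genes 13 were expressed, and the median over all 14 was 19.8 CPM. EDF1 (AT1G25560) led at 134 ± 12.7 CPM, followed by EDF2 (AT1G68840) at 104 ± 6.97 CPM, both DNA-binding factors that also act in flowering time and growth. EDF1 stood at 145, 120 and 137 CPM in replicates 1, 2 and 3. Its deviance was larger than that of 96.7% of the 1000 expressed genes nearest in level, as for EBF1. ERF1 (AT3G23240), a direct target of EIN3, was the lowest expressed at 2.004, 1.39 and 1.32 CPM (62, 26 and 27 counts). ESE1 had no count. Without a treated or mutant sample these levels do not tell how active the pathway was.

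**Figure D5:**
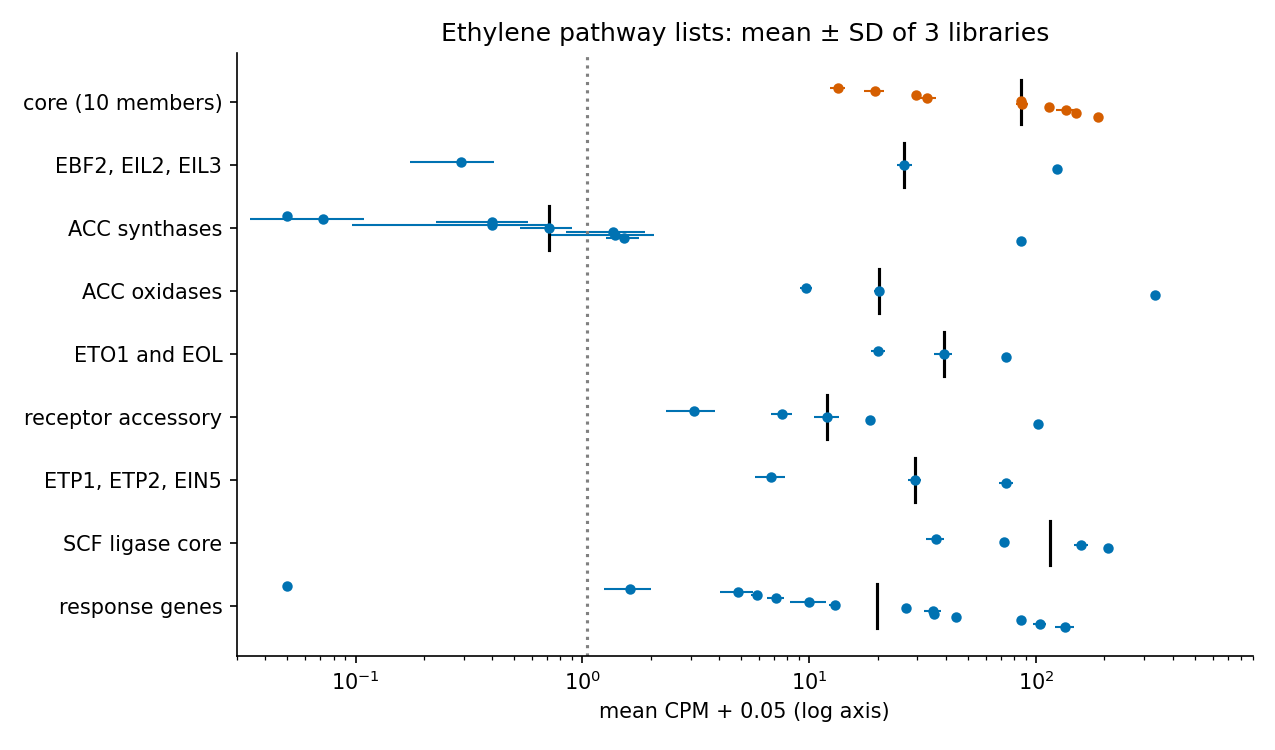
Mean CPM plus 0.05 (log axis) with SD over 3 libraries for each gene of the ethylene core and of the other pathway lists, where black lines mark list medians, the dotted line marks 1 CPM and SD bars stop short of 0. The 10 core genes span 13.3 to 187 CPM, while 5 of 9 ACC synthase genes lie under 1 CPM.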

How the data were processed

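The authors deposited raw counts per gene, with 1 column for each of 3 RNA libraries. The build was TAIR10, and featureCounts, HISAT2, cutadapt, SAMtools 1.13, deepTools 3.5.1 and Bowtie2 2.4.5 are listed without roles, per the submitters' processing notes. The RNA library kit keeps strand, per the labels' protocols. The sources used here do not give the annotation release or the settings for strand, read pairs and reads with several matches, and settings that drop shared reads would lower close relatives. All 279 organelle genes of the table were at 0.

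CPM were computed with TMM scaling (factors 0.989 to 1.01) in edgeR 4.0.16 and R 4.3.3. Replicate spread was tested with edgeR's goodness of fit (intercept only, deviance against chi-square, Benjamini-Hochberg adjustment over all 18915 genes with a mean of at least 1 CPM, threshold 0.05), and the code was tested on simulated data. Wilson intervals came from SciPy 1.17.1. The floor for a gene at 0 was 3 counts (0.0969 to 0.162 CPM by library), which covers counting error only. Levels per coding length were planned, but no such lengths were used here, so CPM replaced them and the comparisons of protein features were not made. Alternatives were other scalings (library totals, DESeq2 1.42.0 size factors), filters, dispersions and leaving out each library.

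The members and gene lists were chosen with earlier results of these data known. Of 57 listed genes, 3 whose names the RefSeq gene table (TAIR10.1) does not give were left out, and the lists do not hold every gene of the pathway. Named are all 10 members, EBF2 and its fellow relatives, and of each other list the 2 highest and the lowest expressed genes and those without a count. Any gene called by the test at the trended dispersion, or with an unadjusted p under 0.05 in it, is also named.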

Additional observations from a re-analysis of the deposited data

How the results depend on the processing

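No paired analysis was possible because the RNA samples form a single group. Under every alternative run (DESeq2 size factors, library totals only, no filter, a filter at 5 CPM, a common dispersion, each library left out), 0 of the 10 ethylene genes were called against genes of their level. So few genes were called in all that this is no sign of stability: over 18915 genes the count was 28. It rose to 161 with a common dispersion and ran from 6 to 29 with a replicate left out, with 6 reached without replicate 3. Against counting error, halved counts lowered the calls to 1211 genes and 1 of the 10, against 6197 and 4 as deposited. Leaving out a replicate gave 2964 to 3862 genes and 2 to 5 of the 10. The order of the 10 genes by reads was kept in all 5 alternatives run, and every level and receptor share moved by less than its SD. The latter is no sign of stability, since leaving out 1 of 3 libraries can hardly move a mean by its SD. The TMM factors of 0.989 to 1.01 also left library totals little to change. The planned comparisons of order and receptor shares with and without length were not run, since no lengths were used here. At this depth 5 of 9 ACC synthase genes lay under 1 CPM and rest on few counts.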

Other observations

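EBF1 works as the substrate-binding part of an SCF ubiquitin ligase, whose other subunits serve many F-box proteins. The 4 genes listed for that core were all expressed, and their median was 116 CPM. CUL1 (AT4G02570), the scaffold, stood at 208 ± 6.43 CPM and SKP1 (AT1G75950), the adaptor that holds the F-box protein, at 159 ± 11.3 CPM. RBX1 (AT5G20570), which recruits the ubiquitin-conjugating enzyme, was the lowest at 36.1 ± 3.35 CPM. None of the 4 passed the edgeR test at the trended dispersion, and 0 had an unadjusted p under 0.05. Against counting error alone the test called 3 of 4 and 32.8% of expressed genes, a share not matched for level.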
